A study of Rattus norvegicus with 14 samples.

Results

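The cytosolic ribosomal protein genes were followed in peripheral blood mononuclear cells (PBMC, the lymphocytes and monocytes of blood) of rats with and without collagen-induced arthritis, an inflammatory joint disease raised by immunisation against type II collagen. A gene was a member when its probe set carried a single gene symbol of the Rpl or Rps form, or was Rplp0 or Rpsa, and the kinases named Rps6k were left out. Of the 14217 genes with a single symbol, 48 met this rule, 15 of the small and 33 of the large subunit, and each was represented by its probe set of highest mean signal. A further 36 ribosomal protein probe sets carried several symbols and were not members, so that Rplp1 and Rps4x, among others, are not described. Of the 48 genes, 46 passed a filter on low signal (above the median of the array on at least 2 of 14 arrays) and were tested. Cells came from female Wistar rats killed at sampling and were separated on a Ficoll gradient. The groups were MTXAP, arthritic rats after 34 days of methotrexate and acupuncture (3 arrays), AP, arthritic rats after 34 days of acupuncture (3 arrays), RA, arthritic rats before any therapy (2 arrays), HAP, healthy rats after 34 days of acupuncture (3 arrays) and NORA, healthy rats before any therapy (3 arrays). In the study the acupuncture is a mechanical stimulation, the puncture and twirling of short needles in back and legs. No group was sampled at 34 days without stimulation, so that stimulation and time between samplings cannot be told apart, and no group received methotrexate alone. The labels do not say whether an array holds 1 rat or a pool, so that the p-values measure only the spread between these samples.

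Cytosolic ribosomes translate messenger RNA and are built from ribosomal RNA and about equal molar amounts of each ribosomal protein, so that these genes are usually expressed together and at very high level. Most of their mRNAs begin with a C followed by a run of pyrimidines, the terminal oligopyrimidine (TOP) motif, through which the kinase complex mTORC1 controls their translation. In resting blood lymphocytes many of these mRNAs are held untranslated, and activation of the cell brings them to the ribosome, a change that an expression array does not measure.

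The start windows of the genes are shown because the TOP motif is read at the first transcribed bases. RefSeq windows of 300 bases (250 before and 50 after the annotated start, rat build GRCr8) were matched for 43 of the 48 genes, 41 by gene ID and 2, Rpl37a and Rps9, by symbol. In the 24 bases printed for each gene, 5′ to 3′, the annotated start is the ninth base. Capitals mark a pyrimidine tract that begins with C within 5 bases of the start and runs for at least 5 bases, or, where there is none, the start base alone. The first 6 genes are abundant members with a tract, and the other 6 are members named below for their values.
Rplp0 (chr12:46718375-46718398, minus strand): ccgcaCTTCTCTCgccaggcgtcc
Rpl19 (chr10:83519056-83519079, plus strand): agcaagCTCTTTCCTTTCgctgct
Rps15 (chr7:10068100-10068123, minus strand): accgCTTCCTTTTCCCagcagccg
Rpl35a (chr11:81235006-81235029, minus strand): ttgCCTTCCTCTTTCCgccatctt
Rpl22 (chr5:168117953-168117976, plus strand): gccCCCCTCCCTTTCTgcctcctc
Rpl37a (chr9:81748083-81748106, plus strand): cgttgcgtCTCTTCCTCTTCgggc
Rps15a (chr1:181860269-181860292, minus strand): ttctttccAcagtcaccatggtgc
Rps4y2 (chr4:183000905-183000928, plus strand): gctCTCCTCactcgcttgtgctct
Rpl7l1 (chr9:21695710-21695733, plus strand): gatgcattGtgggaagcctttaac
Rpl3l (chr10:14258438-14258461, plus strand): ggtgcctgGtggggaggtcccttc
Rpl26l1 (chr10:17029013-17029036, minus strand): atttccggGcctgcgcacacacca
Rps27l (chr8:76443650-76443673, plus strand): catttgtcAttatttgtggtgtcc
Such a tract was found in 22 of the 43 windows (51.2%), against 17% of the 27457 RefSeq windows searched, taking 1 window per gene. In the members with the abundant probe sets described below it was found in 18 of 34 (52.9%), with lengths of 6 to 21 bases, and in the other members in 4 of 9 (44.4%). A stricter reading, C at the start base itself followed by pyrimidines for 5 bases in all, was met by 12 of 43 (27.9%), against 2.63% of all windows. The core motif of ETS factors, CCGGAAG on either strand, lay in 10 of 43 windows (23.3%), against 9.22% of all windows. The core motif of YY1, AAGATGGC on either strand, lay in 4 of 43 (9.3%), against 3.44%, and TATAAA in 6 of 43 (14%), against 14.3%. These are matches of letters at annotated starts, which can lie some bases away from the start used in these cells.

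The signals came as MAS5 values, each array scaled to a trimmed mean of 500, and are given as log2. Lists of markers of the expected cells were well above the array median. Their median percentiles were 96.9 for T cells, 94.1 for monocytes, 94.8 for NK cells and 85.2 for B cells. Platelet markers stood at 98.8 and erythroid markers at 88.6. The lowest single marker was at 45.4 in the T cell list and at 54.3 in the monocyte list. NORA replicate 3 stood apart, with the highest erythroid marker score of all arrays (2.29 log2 units above the mean of the arrays) and the highest level of the spiked-in controls (13.13, against 11.85 to 12.69 on the other 13 arrays). Its array weight was the lowest (0.29), but that of NORA replicate 1 was nearly as low (0.32). NORA replicate 2 had the highest weight of all arrays (2.82), so that weighted fits took the NORA mean mostly from it. MTXAP replicate 3 had the lowest erythroid score (-4.48) and the most uneven actin signal along the transcript (3′ over 5′ probes 5.01, against 1.97 to 4.36 on the other arrays). NORA replicate 3 touches several results below, and values without it are given beside some of those on the ribosomal protein genes.

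The members fell into abundant and dim genes with no level in between. In 38 genes, 12 of the small and 26 of the large subunit, the mean log2 signal over the 14 arrays was 14.57 to 15.83, and the percentile on the array, averaged over arrays, was at least 99.49. The next gene, Rpl7l1, had 10.52. The limit of 14 that separates them below was chosen after the levels were seen. Rps29 (15.83) and Rps23 (15.82), of the small subunit, had the highest mean signals, and Rpl14 (14.57) the lowest of the abundant genes, though signals of different probe sets are not a measure of relative mRNA number. Rps6, the S6 kinase substrate of the small subunit, averaged 15.34, Rpl3, close to the peptidyl transferase centre, 15.45, Rplp0, which anchors the stalk where elongation factors bind, 15.15, Rpsa, the laminin receptor precursor, 14.77, Rpl22, which developing T cells of mice require, 15.08, and Rpl41, the smallest member, 14.90. Of the 8 dim genes that were tested, 5 are paralogs of a ribosomal protein: Rps4y2 (6.71), a relative of Rps4x, Rpl7l1, Rps27l (8.64), a p53 target in human cells, Rpl26l1 (8.16) and Rpl3l (6.29), known from heart and skeletal muscle. The other 3 were Rpl39 (9.39), Rps13 (8.72) and Rpl28 (7.05). Rpl28 and Rps13 also have a probe set with several symbols, so that their single-symbol probe set is not the only measure of them. Rpl30 (5.31) and Rpl39l1 (4.37) lay below the filter and were not tested. Rpl30 also has 2 probe sets with several symbols, so that its low single-symbol probe set is not the only measure of it either. Together the 48 probe sets held 4.41% to 6.33% of the summed signal of an array.

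**Figure D1:**
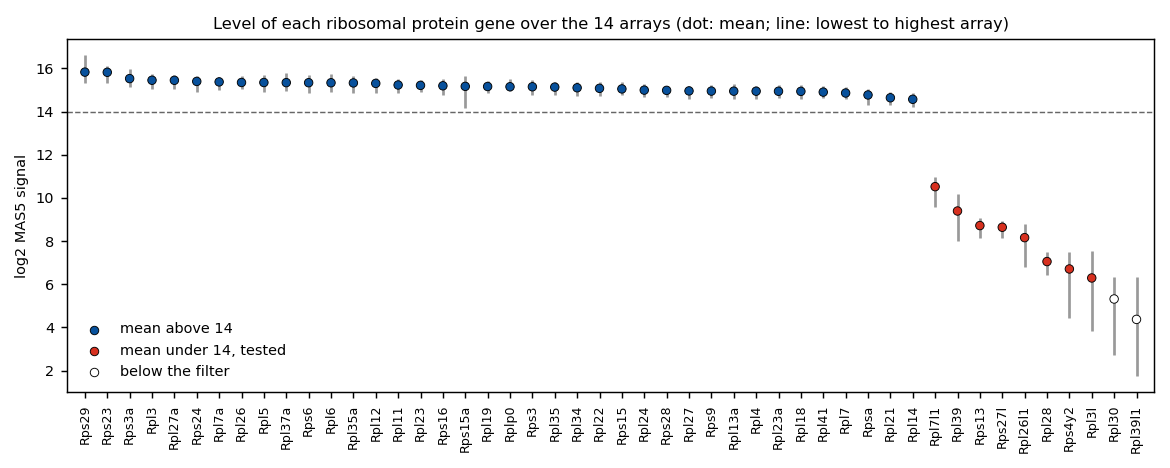
Level of each member: log2 MAS5 signal (vertical axis) of the 48 genes (horizontal axis, ordered by mean), with the mean over 14 arrays as a dot and the range over arrays as a line. The 38 genes above the dashed line at 14 have means of 14.57 to 15.83, and no gene lies between 10.52 and 14.57.

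Abundant members moved up and down together from array to array on the deposited scale. Their residual SD within groups was 0.10 to 0.33 (median 0.20), against a median of 0.35 over the 93 other genes of mean log2 signal above 14 and 0.36 over all genes tested. Rplp0 varied least of all tested members (0.10), followed by Rpl19 (0.15), Rpl26 (0.16), Rpl13a (0.16) and Rpl7 (0.17), and Rpl3l (0.86), Rpl39 (0.66), Rpl26l1 (0.60), Rps4y2 (0.56) and Rpl28 (0.40), all dim, varied most. Over the 14 arrays the mean pairwise correlation of the 38 abundant genes was 0.77, against 0.31 for those 93 genes and 0.01 for all 10107 genes tested. The 8 dim members had 0.11. These correlations are descriptions, since all genes of an array share its scaling and its RNA. After quantile normalization, which gives every array the same distribution, the mean correlation was 0.83 for the abundant members and 0.03 for the other bright genes. The value of 0.83 rested on NORA replicate 3, without which it was 0.49, whereas on the deposited scale it was 0.88 without that array. Within groups, with group means removed, the abundant members had 0.74 on the deposited scale, and 0.86 without NORA replicate 3. On the deposited scale Rpl34 followed the median of the other abundant members most closely (r = 0.99), then Rpl4 and Rpl12 (0.98 each). Rps15a (0.47) and Rpl35a (0.57) followed it least among the abundant genes there. After quantile normalization Rps15a had 0.97 and Rpl35a 0.91, and Rps29 (0.59) and Rpl6 (0.63) followed least. Both rankings include NORA replicate 3.

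The shared movement was visible on single arrays. All 38 abundant members stood above their own mean on HAP replicates 1 and 2 and on NORA replicate 1, and all 38 below it on AP replicate 3 and NORA replicate 2. On AP replicate 2, 37 of 38 stood below, and on MTXAP replicates 1 and 2, 35 and 37 stood above. NORA replicate 3 was different in kind. There the genes split, 21 above and 17 below, with an SD over genes of 0.31, against 0.05 to 0.11 on the other 13 arrays. The extremes on that array were Rps15a, 0.98 below its mean, and Rps29, 0.77 above it. The abundant members lie near the upper end of the signal range, and that end also varied. The highest signal of any probe set, controls left out, was 43144 on AP replicate 3 and 51458 on NORA replicate 2. It was 67488 and 68553 on HAP replicates 1 and 2, 66442 on NORA replicate 1 and 113404 on NORA replicate 3. Its part in the shared movement was not tested.

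**Figure D2:**
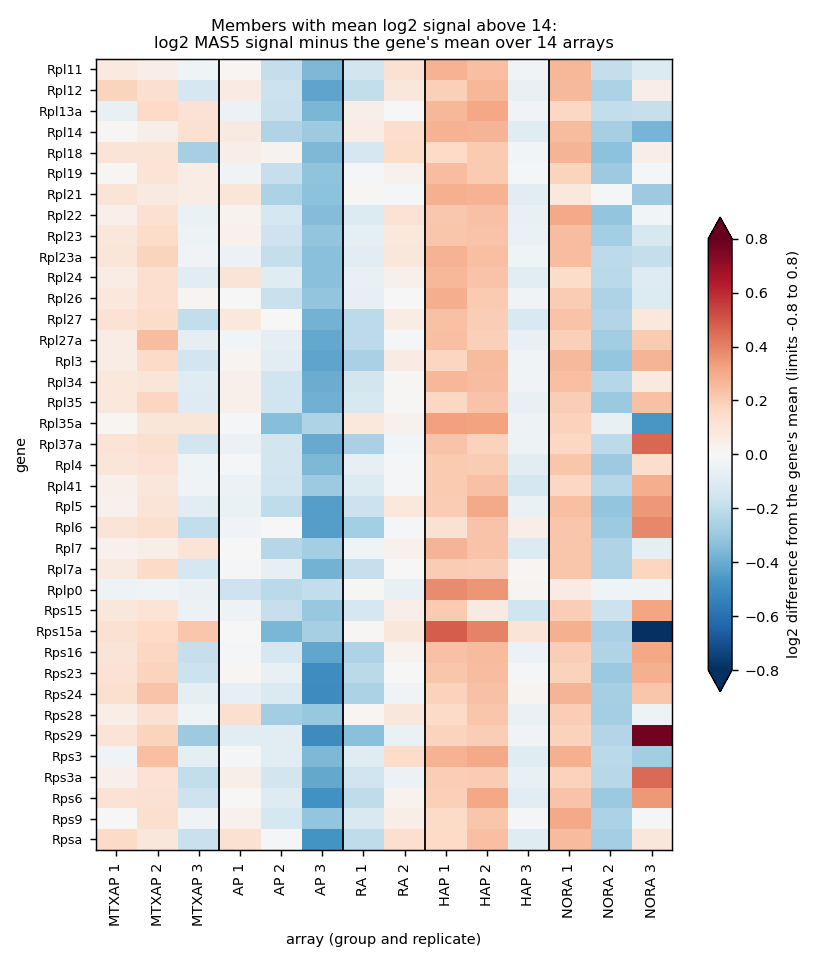
Abundant members array by array: log2 MAS5 signal of each of 38 genes (rows) minus the gene's mean over the 14 arrays, for each array (columns, grouped, black lines between groups), colour from -0.8 to 0.8. Whole columns are red (HAP 1, HAP 2, NORA 1) or blue (AP 3, NORA 2), and only NORA 3 mixes strong red and blue, with an SD over genes of 0.31.

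No member passed an adjusted p of 0.05 in any comparison (limma, Benjamini-Hochberg over 18515 probe sets), and neither did any of all the probe sets (0% called in each of the 7 comparisons). At an unadjusted p under 0.05, 0 members were higher and 1 lower in RA against NORA, where 3.12% and 5.36% of all probe sets were. In AP against RA, 1 was higher and 0 lower (3.90% and 3.93% of all), in MTXAP against RA 1 and 0 (2.55% and 2.85%), in HAP against NORA 1 and 0 (3.72% and 2.46%), in MTXAP against AP 0 and 0 (7.07% and 7.76%) and in AP against HAP 0 and 1 (2.01% and 3.67%). What the members share is therefore given below as counts of direction and medians, beside the same over all genes tested.

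Untreated arthritic and healthy rats were compared to see what the disease did before therapy. The centred median of the abundant members, which is the median over the 38 genes of the log2 signal minus the gene's mean over arrays, was -0.13 and 0.03 on the RA arrays, against 0.22, -0.25 and 0.07 on the NORA arrays. Both RA arrays lay inside the range of the NORA arrays. Of 46 members, 19 were above 0 and 27 below, with a median log2 fold change of -0.06, against 0.08 over all genes. The direction depended on the scaling: quantile normalization put 42 of 46 above 0 (median 0.33, all genes 0.08), and setting the array medians equal put 39 above 0 (median 0.16), although that scaling moved the median of all genes to 0.30. NORA replicate 3 lay far below the others on that scale, with a quantile centred median of -0.63, against 0.11 and -0.10 on the other NORA arrays, and without NORA replicate 3 and MTXAP replicate 3 the quantile median was 0.12. The arrays of the groups did not overlap in 11 members higher in RA on the quantile scale, against 12.1% of all probe sets, and in 0 on the deposited scale. On the deposited scale, the median was 0.05 without NORA replicate 1, 0.04 without RA replicate 1, -0.03 without NORA replicate 3, -0.21 without NORA replicate 2 and -0.13 without RA replicate 2. Spiked-in controls averaged 12.03 on RA arrays and 12.59 on NORA arrays, and the platelet marker score was -0.95 ± 0.37 (SD, n = 2) and 0.59 ± 1.10 (SD, n = 3). The T cell marker score was 0.17 to 0.22 in RA and -0.24 to 0.16 in NORA, without overlap. Their part in the result was not tested. In a sample of mixed cells, fewer cells of a type and less RNA per cell cannot be told apart.

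The member that stood out before therapy was Rps4y2, a paralog of ribosomal protein S4, annotated on chromosome 4. Its log2 signal was 5.88 and 4.45 on the RA arrays, against 7.34, 6.32 and 7.26 on the NORA arrays. The groups did not overlap, as in 9.33% of all probe sets in this direction (11.7% in the other, with 0 members). The log2 fold change was -1.81 ± 0.48 (SE, adjusted p = 0.583 in limma). By the thresholds of the study, which take an unadjusted p under 0.05 with a 2-fold change, Rps4y2 was the only member past both in RA against NORA, AP against RA and MTXAP against RA, where 3.83% (lower), 2.57% (higher) and 1.77% (higher) of all probe sets were in the same direction. The study further removed genes by detection calls, which are not analysed here, so that it is not known whether this dim probe set would pass its full criteria. Both RA arrays were also below every array of the treated arthritic rats, which had 7.29, 6.88 and 6.75 in MTXAP and 7.003, 7.21 and 6.11 in AP. Rps4y2 was thus higher by 1.81 ± 0.48 in MTXAP over RA (adjusted p = 0.901) and by 1.61 ± 0.48 in AP over RA (adjusted p = 0.616), all 3 comparisons in limma and all sharing the same 2 RA arrays. This probe set was dim, at percentiles 19.8 to 57.3 of its array. The difference rested on RA replicate 2: without it the values were -1.10 for RA over NORA, 1.10 for MTXAP over RA and 0.90 for AP over RA, none with an unadjusted p under 0.05. Rpl39, a small protein of the exit tunnel, showed an order of the same kind at 9.02 and 8.45 in RA, against 10.02, 8.99 and 10.18 in NORA, but the groups overlapped (-0.99 ± 0.55, adjusted p = 0.593 in limma).

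Arthritic rats after 34 days of acupuncture were set against arthritic rats before therapy. The centred medians on the deposited scale were 0.00, -0.15 and -0.36 on the AP arrays, against -0.13 and 0.03 on the RA arrays, so that the groups overlapped there. The groups did not overlap after quantile normalization (-0.07 to 0.05 in AP, 0.10 to 0.12 in RA). With equal array medians they did not overlap either (-0.29 to 0.004 in AP, 0.07 to 0.14 in RA). Of 46 members 43 were lower in AP, the 38 abundant ones among them, with a median of -0.12, against 0.01 over all genes, of which 4948 of 10107 were lower. Quantile normalization left the direction (42 of 46 lower, median -0.15), and equal array medians gave -0.25, with all genes at -0.12. On the deposited scale, the only one on which AP and RA arrays were left out, the shift rested on AP replicate 3. Without it 23 of 46 members were lower and 23 higher (median -0.01). Without RA replicate 2 the median was -0.04 (28 of 46 lower), without RA replicate 1 it was -0.20, and without AP replicate 1 it was -0.21. Marker scores, each the mean over the tested markers of a cell type of the log2 signal minus its mean over arrays, also separated the groups. The platelet score (9 of 13 markers) was -0.04 to 0.69 in AP and -1.21 to -0.69 in RA, and the monocyte score (9 of 11 markers) was 0.19 to 0.98 in AP and -0.09 to -0.04 in RA. The T cell score (15 of 17 markers) was -0.10 to 0.04 in AP and 0.17 to 0.22 in RA. The ratio of 3′ to 5′ actin signal was 2.44 to 2.69 in AP and 2.77 to 2.83 in RA, also without overlap. Their part in the shift was not tested. The arrays of the groups did not overlap in 7 members that were lower in AP, against 19.7% of all probe sets, and in 3 that were higher, against 16.2%. After quantile normalization 20 members were lower without overlap, against 20.3% of all probe sets. The lower ones by the largest difference were Rpl7l1, 10.68, 10.01 and 9.997 in AP, against 10.84 and 10.86 in RA (-0.62 ± 0.35), Rps13 (-0.33 ± 0.25), Rps15a (-0.26 ± 0.31) and Rpl35a (-0.26 ± 0.22). The higher ones were Rps4y2, Rpl39, 9.33, 10.12 and 9.58 in AP, against 9.02 and 8.45 in RA (0.94 ± 0.55), and Rps27l (0.40 ± 0.23). Apart from Rps4y2, none of these had an unadjusted p under 0.05 (3.93% of all probe sets lower and 3.90% higher).

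Adding methotrexate, which blocks folate-dependent nucleotide synthesis, was examined against RA and against AP. In MTXAP against RA, the centred medians were 0.09, 0.13 and -0.07 on the MTXAP arrays, against -0.13 and 0.03 on the RA arrays. Of 46 members 39 were higher in MTXAP, by a median of 0.09, but quantile normalization put 37 of 46 lower (-0.06) and equal array medians 35 lower (-0.05), so that no direction held across scalings. The median on the deposited scale was 0.02 without RA replicate 1, 0.05 without MTXAP replicate 2 and 0.16 without RA replicate 2. The ratio of 3′ to 5′ actin signal was 3.13 to 5.01 in MTXAP and 2.77 to 2.83 in RA, and spiked-in controls were 12.22 to 12.47 in MTXAP and 11.93 to 12.12 in RA, neither with overlap. The T cell score was -0.37 to 0.10 in MTXAP and 0.17 to 0.22 in RA. The NK score was -0.48 to -0.19 in MTXAP and 0.07 to 0.16 in RA, also without overlap. Their part in these values was not tested. Besides Rps4y2, the groups did not overlap in Rpl3l, 6.90, 6.91 and 7.53 in MTXAP, against 6.72 and 6.07 in RA (0.72 ± 0.71), Rps15a (0.12 ± 0.31), Rpl26 (0.11 ± 0.20), Rpl21 (0.08 ± 0.21) and, lower, Rpl7l1 (-0.20 ± 0.35). These were 5 higher and 1 lower, against 9.27% and 12.5% of all probe sets.

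In MTXAP against AP, 43 of 46 members were higher in MTXAP, among them all 38 abundant genes, with a median of 0.22, against -0.04 over all genes. The abundant genes had centred medians of 0.09, 0.13 and -0.07 in MTXAP and 0.00, -0.15 and -0.36 in AP, where MTXAP replicate 3 and AP replicate 1 crossed. The direction was the same with equal array medians (43 of 46, median 0.20) and with quantile normalization (36 of 46), which reduced the median to 0.07. Without AP replicate 3 the median was 0.12 on the deposited scale. In 8 members, all abundant and all higher in MTXAP, the arrays did not overlap, against 12.1% of all probe sets higher and 10.7% lower. After quantile normalization it was 3 higher, against 11.8%, and 2 lower, Rpl7a (-0.03) and Rpl3 (-0.02), against 10.9%. Rps15a had 15.29, 15.33 and 15.39 in MTXAP, against 15.17, 14.80 and 14.90 in AP (0.38 ± 0.27, adjusted p = 0.538 in limma). Rpl23a (0.27 ± 0.19), Rpl35a (0.27 ± 0.20), Rpl26 (0.24 ± 0.18) and Rplp0 (0.15 ± 0.16) were others. The largest difference of any member was that of the dim Rpl3l, 6.90, 6.91 and 7.53 in MTXAP, against 6.45, 7.07 and 3.82 in AP (1.33 ± 0.63, adjusted p = 0.347 in limma), where 1 low AP array made the difference. Several other measures separated these groups. The monocyte score was -1.29 to 0.14 in MTXAP and 0.19 to 0.98 in AP, and the NK score (9 of 9 markers) was -0.48 to -0.19 in MTXAP and -0.12 to 1.08 in AP. Spiked-in controls were 12.22 to 12.47 in MTXAP and 11.85 to 12.20 in AP, and the ratio of 3′ to 5′ actin signal was 3.13 to 5.01 in MTXAP and 2.44 to 2.69 in AP. Their part in the shift was not tested.

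Healthy rats after 34 days of acupuncture were set against healthy rats before it. The centred medians were 0.22, 0.23 and -0.05 on the HAP arrays, against 0.22, -0.25 and 0.07 on the NORA arrays. Of 46 members 40 were higher in HAP, with a median of 0.12. The median of all genes was 0.10, and 6248 of 10107 genes were higher too. With all arrays at equal weight on the deposited scale, the shift of the members was thus close to that of all genes. Quantile normalization raised the median to 0.31, with all genes at 0.07, and without NORA replicate 3 and MTXAP replicate 3 it gave 0.09. The members' median on the deposited scale was -0.04 without NORA replicate 2, 0.24 without NORA replicate 1, 0.06 without HAP replicate 2 and 0.20 without HAP replicate 3. Without NORA replicate 3 it was 0.15, with 45 of 46 higher and all genes at 0.07. Array weights put 46 of 46 higher (median 0.32, all genes 0.12). Single arrays thus set the size of the members' median on that scale and NORA replicate 2 its sign. The ratio of 3′ to 5′ actin signal did not overlap between the groups, at 3.35 to 4.36 in HAP and 1.97 to 3.01 in NORA, and the platelet score was -0.35 ± 0.21 in HAP and 0.59 ± 1.10 in NORA (SD, n = 3 each). Their part in the values was not tested. The arrays did not overlap in 1 member, the dim Rpl3l, 6.41, 6.47 and 6.41 in HAP, against 5.78, 6.08 and 5.39 in NORA (0.68 ± 0.63), against 6.79% of all probe sets, and 0 members were lower without overlap, against 2.82%. Rps15a had 15.65, 15.57 and 15.27 in HAP, against 15.45, 14.91 and 14.18 in NORA (0.65 ± 0.27, adjusted p = 0.747 in limma). Its lowest value was that of NORA replicate 3, without which the difference was 0.31, and after quantile normalization or with equal array medians it no longer had an unadjusted p under 0.05.

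On the deposited scale, arthritic against healthy rats after acupuncture was the comparison with the most members on one side of 0, though after quantile normalization 3 others, and the difference described below, had more. In AP against HAP, 44 of 46 members were lower in AP, by a median of 0.31 on the log2 scale (median log2 fold change -0.31), whereas 5475 of 10107 genes were lower, with a median of -0.03. The 38 abundant members were all lower, by -0.54 to -0.20, and small (median -0.32) and large (median -0.31) subunit genes alike, while the 93 other genes of mean log2 signal above 14 had a median of -0.04. The centred medians were 0.00, -0.15 and -0.36 on the AP arrays, against 0.22, 0.23 and -0.05 on the HAP arrays, so that AP replicate 1 lay above HAP replicate 3. Without AP replicate 3 the median was -0.19, and over the removal of each other array it was -0.41 to -0.25. With equal array medians 43 of 46 were lower (median -0.22), and with quantile normalization 40 of 46 (median -0.08), so that the direction stayed and the size did not. In 13 members, 11 of them abundant, all AP arrays were below all HAP arrays, against 10.8% of all probe sets (7.08% in the other direction, with 0 members), and in 7 after quantile normalization, against 9.32%. Rplp0 had 14.98, 14.93 and 14.95 in AP, against 15.52, 15.50 and 15.17 in HAP (-0.44 ± 0.16, adjusted p = 0.81 in limma), the only member with an unadjusted p under 0.05, against 3.67% of all probe sets that were lower at that level. After quantile normalization Rplp0 differed by -0.18 ± 0.24 and the groups overlapped. Rps15a had 15.17, 14.80 and 14.90 in AP, against 15.65, 15.57 and 15.27 in HAP (-0.54 ± 0.27). Rpl5, which with Rpl11 binds Mdm2 outside the ribosome, had 15.29, 15.14 and 14.91 in AP, against 15.55, 15.65 and 15.29 in HAP (-0.38 ± 0.21), and the dim Rpl26l1 had 8.19, 8.01 and 7.39 in AP, against 8.69, 8.50 and 8.22 in HAP (-0.61 ± 0.45). Rps6 (-0.33 ± 0.22), Rpl3 (-0.30 ± 0.21), Rpl22 (-0.29 ± 0.20), Rpl41 (-0.27 ± 0.19) and Rpsa (-0.23 ± 0.22) overlapped between the groups. Rpl39 (0.22 ± 0.49) and Rps27l (0.05 ± 0.21) were the 2 members above 0. The spiked-in controls moved the same way as the members, averaging 12.07 ± 0.19 in AP and 12.53 ± 0.18 in HAP (SD, n = 3 each). So did the highest signal of an array, at 53921 ± 9346 in AP and 64807 ± 5591 in HAP (SD, n = 3 each). The ratio of 3′ to 5′ actin signal was 2.44 to 2.69 in AP and 3.35 to 4.36 in HAP. The platelet score was -0.04 to 0.69 in AP and -0.54 to -0.12 in HAP, also without overlap, and the NK score 0.55 ± 0.61 in AP and -0.31 ± 0.36 in HAP (SD, n = 3 each). Their part in the result was not tested.

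**Figure D3:**
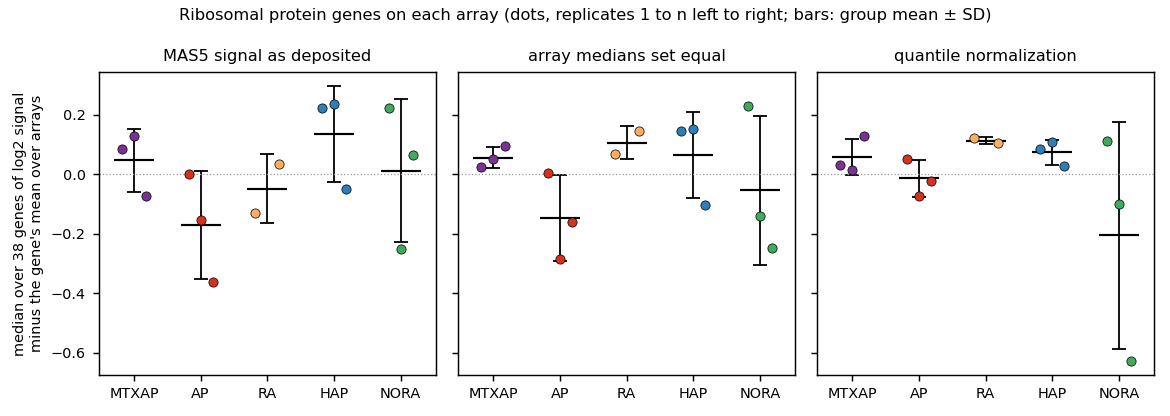
Median over the 38 abundant members of the log2 signal minus the gene's mean over arrays (vertical axis), for each array (dots) and group (bars, mean ± SD), under the deposited scale, equal array medians and quantile normalization. On the deposited scale AP spans -0.36 to 0.00 and HAP -0.05 to 0.23, and under quantile normalization NORA replicate 3 lies at -0.63 while the other 13 arrays lie between -0.10 and 0.13.

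**Figure D4:**
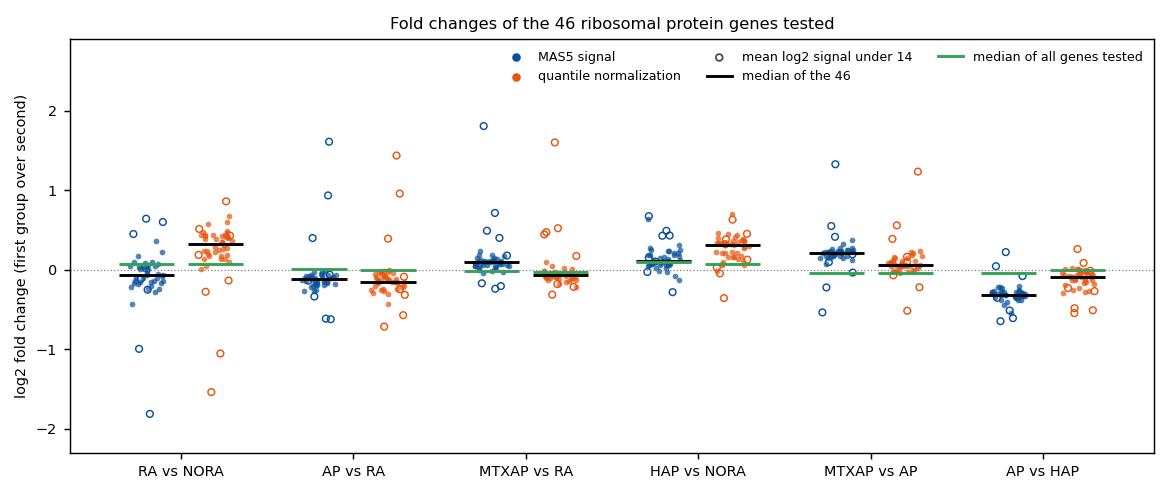
Log2 fold change (first group over second) of the 46 tested members in 6 comparisons, from MAS5 signals (blue) and after quantile normalization (orange), with dim members as open circles, the members' median in black and that of all genes tested in green. The members' median in AP against HAP is -0.31 on MAS5 signals and -0.08 after quantile normalization, and in RA against NORA it changes sign (-0.06 and 0.33).

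Whether the change over 34 days of acupuncture differed between arthritic and healthy rats was tested as the difference of AP minus RA and HAP minus NORA. Of 46 members 42 were below 0, with a median of -0.23, against -0.10 over all genes, of which 5713 of 10107 were below 0. Quantile normalization gave 43 of 46 (median -0.41, all genes -0.08, and -0.22 without NORA replicate 3 and MTXAP replicate 3) and equal array medians 43 of 46 (median -0.35, all genes -0.23). The median on the deposited scale was -0.06 without NORA replicate 2 (28 of 46 below 0), -0.35 without NORA replicate 1, and -0.12 without AP replicate 3 or without RA replicate 2. At an unadjusted p under 0.05, 3 members were below 0, Rpl7l1 (-1.11 ± 0.47), Rps15a (-0.91 ± 0.41) and Rps13 (-0.76 ± 0.33), against 6.99% of all probe sets, and 1 above 0, Rps4y2 (1.46 ± 0.64), against 6.10% of all probe sets, each in limma with an adjusted p of 0.365 to 0.378. The study's thresholds took Rpl7l1, where 4.81% of all probe sets were below 0, and Rps4y2, where 5.38% were above. After quantile normalization Rps15a and Rps13 no longer had an unadjusted p under 0.05. Rpl7l1, a paralog of the large-subunit protein L7 whose yeast relative acts in ribosome assembly, had 10.68, 10.01 and 9.997 in AP and 10.84 and 10.86 in RA, and 10.93, 10.81 and 10.48 in HAP and 10.95, 10.22 and 9.57 in NORA. It was called when arrays were weighted by their quality (-1.17 ± 0.32, adjusted p = 0.0462 in limma), a setting in which 8.92% of all probe sets were called. The NORA arrays had weights of 0.32, 2.82 and 0.29 in that setting.

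**Figure D5:**
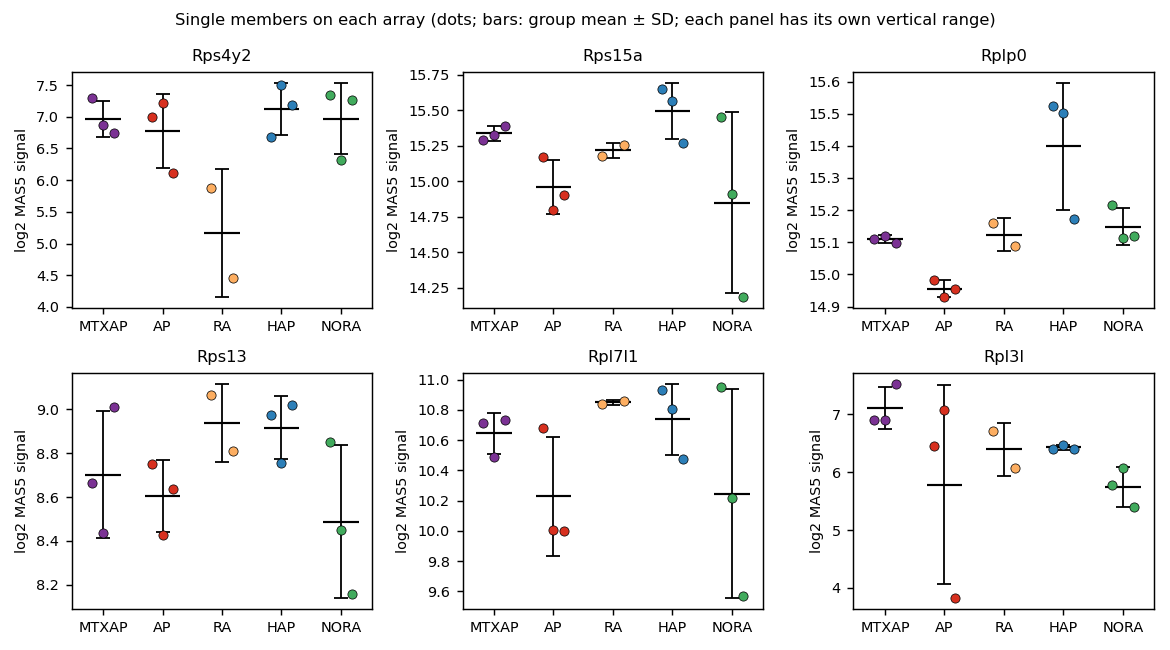
Log2 MAS5 signal (vertical axis, own range in each panel) of 6 members on each array (dots, by group) with group mean ± SD (bars). Rps4y2 is lowest on the 2 RA arrays (5.88 and 4.45), Rplp0 has its 2 highest values on HAP arrays (15.52 and 15.50), and Rps15a its lowest on NORA replicate 3 (14.18).

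On the deposited scale, the share of array signal held by the members was lowest in AP and highest in HAP. It averaged 5.61% ± 0.12 in MTXAP, 4.94% ± 0.53 in AP, 5.48% ± 0.27 in RA (n = 2), 6.01% ± 0.54 in HAP and 5.25% ± 0.89 in NORA (SD, n = 3 unless given). The ranges of AP (4.41% to 5.48%) and HAP (5.38% to 6.33%) overlapped. After quantile normalization the group means were 5.62% in MTXAP, 5.36% in AP, 5.87% in RA, 5.68% in HAP and 4.86% in NORA, the last with 3.70% on NORA replicate 3 and a mean of 5.44% without that array. Counting the 36 probe sets with several symbols as well, the shares were 10.3% in MTXAP, 9.07% in AP, 10.05% in RA, 11.0% in HAP and 9.65% in NORA, in the same order of groups.

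Other genes of translation were followed in 4 lists, other genes with TOP mRNAs (16 of 24 tested), initiation factors (28 of 32), ribosome biogenesis factors (49 of 49) and regulators of mTORC1 and S6 kinase (14 of 15). No gene of these lists passed an adjusted p of 0.05 in any comparison. In AP against HAP, where the members had a median of -0.31, the other TOP genes had -0.25 (12 of 16 lower), biogenesis factors -0.30 (39 of 49 lower), initiation factors -0.15 (21 of 28 lower) and the mTORC1 list -0.01 (7 of 14 lower). Elongation factors led the TOP genes by p, with Eef1a1 at -0.34 ± 0.18 and Eef2 at -0.33 ± 0.19. Among biogenesis factors Dkc1, the pseudouridine synthase dyskerin, had -0.63 ± 0.22 and Mrto4, whose yeast counterpart assembles the stalk of the large subunit, -0.81 ± 0.29. Of these factors 5 were lower and 1 higher at an unadjusted p under 0.05, where 3.67% and 2.01% of all probe sets were.

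The medians of the biogenesis factors also differed from 0 in RA against NORA, where the ribosomal protein genes had no settled direction. There 42 of 49 were higher in RA, with a median of 0.27, and 39 of 49 after quantile normalization (0.18), against 0.08 over all genes on either scale. In AP against RA, 40 of 49 were lower in AP (median -0.36, and -0.32 after quantile normalization), and in 27 the arrays did not overlap, against 19.7% of all probe sets lower in AP. In MTXAP against AP, 41 of 49 were higher in MTXAP (median 0.31, and 0.30 after quantile normalization). In the difference between arthritic and healthy rats 43 of 49 were below 0 (median -0.65, all genes -0.10), and 11 of them had an unadjusted p under 0.05, where 6.99% of all probe sets did, led by Mrto4 (-1.45 ± 0.44), Lsg1, a GTPase of the late large subunit (-1.13 ± 0.35), and Riok1, a kinase of the late small subunit (-1.55 ± 0.56), all in limma with an adjusted p of 0.36. Both parts of this difference entered for Mrto4 and Lsg1. In AP against RA, Mrto4 had -0.73 ± 0.33 and Lsg1 -0.58 ± 0.26 (adjusted p = 0.616 each in limma). In HAP against NORA they had 0.72 ± 0.29 and 0.55 ± 0.23 (adjusted p = 0.747 each in limma). Values without single arrays are not given for this list. Initiation factors had a deposited-scale median of 0.32 in RA against NORA (26 of 28 higher), against 0.08 over all genes. In AP against RA it was -0.29 (25 of 28 lower), against 0.01 over all genes, and both comparisons share the same 2 RA arrays. Eif2b5, a subunit of the exchange factor of eIF2, was at -0.67 ± 0.28 in AP against RA. The mTORC1 list had medians between -0.11 and 0.09 in the 7 comparisons on the deposited scale. Comparisons that share RA or AP arrays are not independent of each other.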

How the data were processed

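PBMC RNA was labelled with a 3′ amplification kit and hybridised to 14 Affymetrix rat expression arrays. The deposited values are MAS5 signal intensities on a linear scale, made by the authors with the affy package, 1 table for all arrays, and each array was found scaled to a trimmed mean of 500 (2% off each end). Genome build and annotation of the arrays are not given in the sources used here. Probe sets were named from the platform annotation. Of 31042 probe sets, controls left out, 20826 had 1 symbol, 436 several and 9780 none. Intensities were taken as log2 without a pseudocount. The 18515 probe sets above the array median on at least 2 arrays were fitted with limma 3.58.1 (R 4.3.3), 5 group means over all 14 arrays, with p-values adjusted by Benjamini-Hochberg. The fit was tested on simulated data. The number of arrays, 2 or 3 a group, limits the precision. Named genes were, per comparison, up to 4 members in each direction with the largest difference among those whose groups did not overlap, the 5 most and 5 least variable, a set list (Rplp0, Rpsa, Rps6, Rpl3, Rpl41, Rpl22 and paralogs), and up to 3 genes of each translation list by p. Members and lists were chosen with earlier results of these data known. Alternatives were the study's thresholds, quantile normalization, equal array medians, other filters, a pseudocount of 32, array weights, no variance moderation, only the groups compared, the replicate block, other choices of probe set and leaving out each array. The limit of 14 for abundant genes, the probe sets with several symbols, and runs without NORA replicate 3, alone or with MTXAP replicate 3, were added after seeing the data.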

Additional observations from a re-analysis of the deposited data

How the results depend on the processing

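No limma fit gave a member an adjusted p under 0.05 in the 6 comparisons of groups. In the difference between arthritic and healthy rats, array weights called 1 member (Rpl7l1) and quantile normalization with array weights 2 (Rpl7l1 and Rpl14). The study's thresholds took 1 member in each of RA against NORA, AP against RA and MTXAP against RA, each time Rps4y2, and 2 in that difference. Leaving out each array called 0 members. The count of all probe sets called, 0 in the main fit, was 765 in RA against NORA and 1651 in the difference with array weights, 1066 in RA against NORA, 271 in HAP against NORA and 1799 in the difference with quantile normalization and array weights, and 168 in RA against NORA and 980 in the difference without NORA replicate 1. In the other settings it was at most 15.

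Quantile normalization gave members' medians of 0.33 in RA against NORA, 0.31 in HAP against NORA, -0.085 in AP against HAP and -0.41 in the difference. Equal array medians gave 0.16 in RA against NORA. Array weights gave 0.14 in RA against NORA, 0.32 in HAP against NORA and -0.41 in the difference. Without NORA replicate 3 and MTXAP replicate 3, quantile normalization gave 0.12 in RA against NORA, -0.098 in MTXAP against RA, 0.036 in MTXAP against AP and -0.085 in AP against HAP. With array weights it gave 0.24 in RA against NORA, -0.080 in MTXAP against RA and -0.094 in AP against HAP. The cause was not tested. Over the removal of each array, done on the deposited scale, the medians ranged from -0.21 to 0.05 in RA against NORA, -0.21 to -0.01 in AP against RA, 0.02 to 0.16 in MTXAP against RA, -0.04 to 0.24 in HAP against NORA, 0.12 to 0.31 in MTXAP against AP, -0.41 to -0.19 in AP against HAP and -0.35 to -0.06 in the difference. Of 570 values of single genes under alternatives, 10 changed sign. In MTXAP against RA, Rps15a was -0.013 with quantile normalization, -0.026 with equal array medians, -0.15 with quantile normalization without NORA replicate 3 and MTXAP replicate 3 and -0.076 with quantile normalization and array weights, and Rpl26 was -0.040, -0.032, -0.12 and -0.074 under the same settings. In MTXAP against AP, Rpl35a was -0.0094 and Rpl26 -0.028 with quantile normalization without NORA replicate 3 and MTXAP replicate 3. The share of signal was 5.87% in RA with quantile normalization, 5.75% in MTXAP with all probe sets of the genes, and, with the probe sets of several symbols, 9.65% in NORA, 10.05% in RA, 11.0% in HAP, 9.07% in AP and 10.3% in MTXAP.

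Same-numbered arrays of different groups did not deviate together (r of -0.42 to 0.37 over 26 pairs, median 0.06). With the replicate block 0 members were called, and the medians were -0.13 in RA against NORA, -0.07 in AP against RA, 0.14 in MTXAP against RA, 0.12 in HAP against NORA, 0.22 in MTXAP against AP, -0.31 in AP against HAP and -0.17 in the difference. The median residual SD was 0.48 in the 8 dim members tested and 0.20 in the abundant ones, although Rps27l (0.21) and Rps13 (0.24) lay in the range of the abundant members.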
